A study of Saccharomyces cerevisiae W303 with 86 samples.

Results

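A group of 6 nuclear genes of budding yeast whose proteins work as translation factors inside mitochondria were followed through every library of a study of OXPHOS deficiency. They were chosen by systematic name: IFM1 (YOL023W), TUF1 (YOR187W), MEF1 (YLR069C), MRF1 (YGL143C), RRF1 (YHR038W) and MEF2 (YJL102W), 6 of the 7126 features listed per library. The study measured poly(A) mRNA in 78 libraries and ribosome footprints in 8 libraries of strain W303-1A, all taken in mid-log growth, at an optical density of 0.5 to 0.8, from complete synthetic medium. Its carbon source was 2% glucose, on which yeast can live without respiration. Levels are RPKM (reads scaled by gene length and by the total reads of the library), so levels of different genes can be compared per length.

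The libraries fall into 29 groups and 7 sets, and each group was compared with the control of its own set. The OXPHOS set holds wild type (6 libraries), deletions of COR1 (a complex III subunit), COX9 (complex IV) and ATP7 (ATP synthase), and rho0, a strain with no mitochondrial DNA. The PUF3 set holds wild type, the puf3 deletion, the atp7 deletion, atp7 puf3, rho0 and puf3 rho0. The Puf3-15A set holds wild type, the allele puf3-15A, rho0 and puf3-15A rho0. The SNF1 set holds wild type and the snf1 deletion, each untreated or after ethidium bromide at 25 µg/ml for 48 h, a dye that depletes mitochondrial DNA. The MIG1 set compares snf1 mig1 with snf1, both with that ethidium bromide treatment. The INH1 set holds wild type, rho0, and rho0 with CUP1p-INH1, INH1 under the copper-inducible CUP1 promoter, without copper and with CuSO4 at 10 mM for 12 h. The footprint set holds wild type, the puf3 deletion, rho0 and puf3 rho0, 2 libraries each, with cycloheximide at 100 µg/ml for 2 min before lysis. All mRNA groups other than the OXPHOS wild type have 3 libraries. The labels number the replicates without saying whether they came from separate cultures, so p-values measure the spread between these libraries, which may be technical.

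As background, mitochondria keep their own ribosomes, which make the few respiratory chain and ATP synthase subunits encoded in mitochondrial DNA, while the factors that run them are encoded in the nucleus and imported. IFM1 encodes the initiation factor, TUF1 the elongation factor Tu that brings aminoacyl-tRNA to the ribosome, MEF1 the elongation factor G that moves the ribosome along, MRF1 the release factor that ends the chain, and RRF1 the ribosome recycling factor. MEF2 encodes a second protein of the elongation factor G family, whose human counterpart splits spent ribosomes together with the recycling factor. Puf3 is an RNA-binding protein that binds many nuclear mRNAs for mitochondrial proteins, above all those of the mitochondrial ribosome.

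The genes are spread over the R64 genome of RefSeq. IFM1 lies on chromosome XV from 278056 to 280086 and TUF1 on the same chromosome from 684030 to 685343. MEF1 lies on chromosome XII from 271630 to 273915, on the minus strand, MRF1 on chromosome VII from 234717 to 235958, also on the minus strand, and RRF1 on chromosome VIII from 184066 to 184758. MEF2 lies on chromosome X from 231301 to 233760, and with 2460 bases it is the longest of the 6. None of the 6 annotated genes overlapped its neighbour on either side, so the factors do not share reads by overlap of the annotated spans. The closest neighbours of MEF2 are GSM1 at 419 bases on its left and GSH1 at 559 bases on its right.

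Several facts of the libraries bear on the results. Reads recovered from the deposited values numbered 8622274 to 14402894 per mRNA library and 1149911 to 2983582 per footprint library, the MIG1 set aside. COR1, COX9, ATP7, PUF3, SNF1 and MIG1 reached at most 1.77 RPKM wherever the labels give them as deleted. RPKM says nothing of whether puf3-15A is present. The mitochondrially encoded COX1 averaged 3.90 to 19.7 RPKM in the wild-type mRNA groups and reached at most 0.109 RPKM in the mRNA libraries of rho0 and ethidium bromide groups. Wild-type libraries 1 to 3 and 4 to 6 of the OXPHOS set stood apart from each other. The series lists libraries 1 to 3 just before cor1, cox9 and atp7, and libraries 4 to 6 just before rho0. The labels do not say whether each trio was made with the groups that follow it, and the main tests pool all 6. W303-1A is of mating type a, but 17 libraries of 6 groups had little RNA of the 7 genes that mark that type, with a sum of 16.8 to 42.3 RPKM. Those groups are the footprint wild type, both snf1 groups of the SNF1 set, both groups of the MIG1 set and the INH1 set's wild type. MFA1 and ASG7 were each listed at 0 in 1 of these libraries. The sum was 566 to 830.5 RPKM in the PUF3 set's wild type and 1099.9 to 3046 RPKM in the other 66 libraries. The 4 genes FUS3, STE4, GPA1 and STE18, of the pheromone response of haploid cells, summed to 5.87 to 50.2 RPKM, 129.8 to 153 RPKM and 264 to 469.7 RPKM in the same order. Comparisons across these lines therefore set libraries side by side that differ in mating type genes as well.

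**Figure D1:**
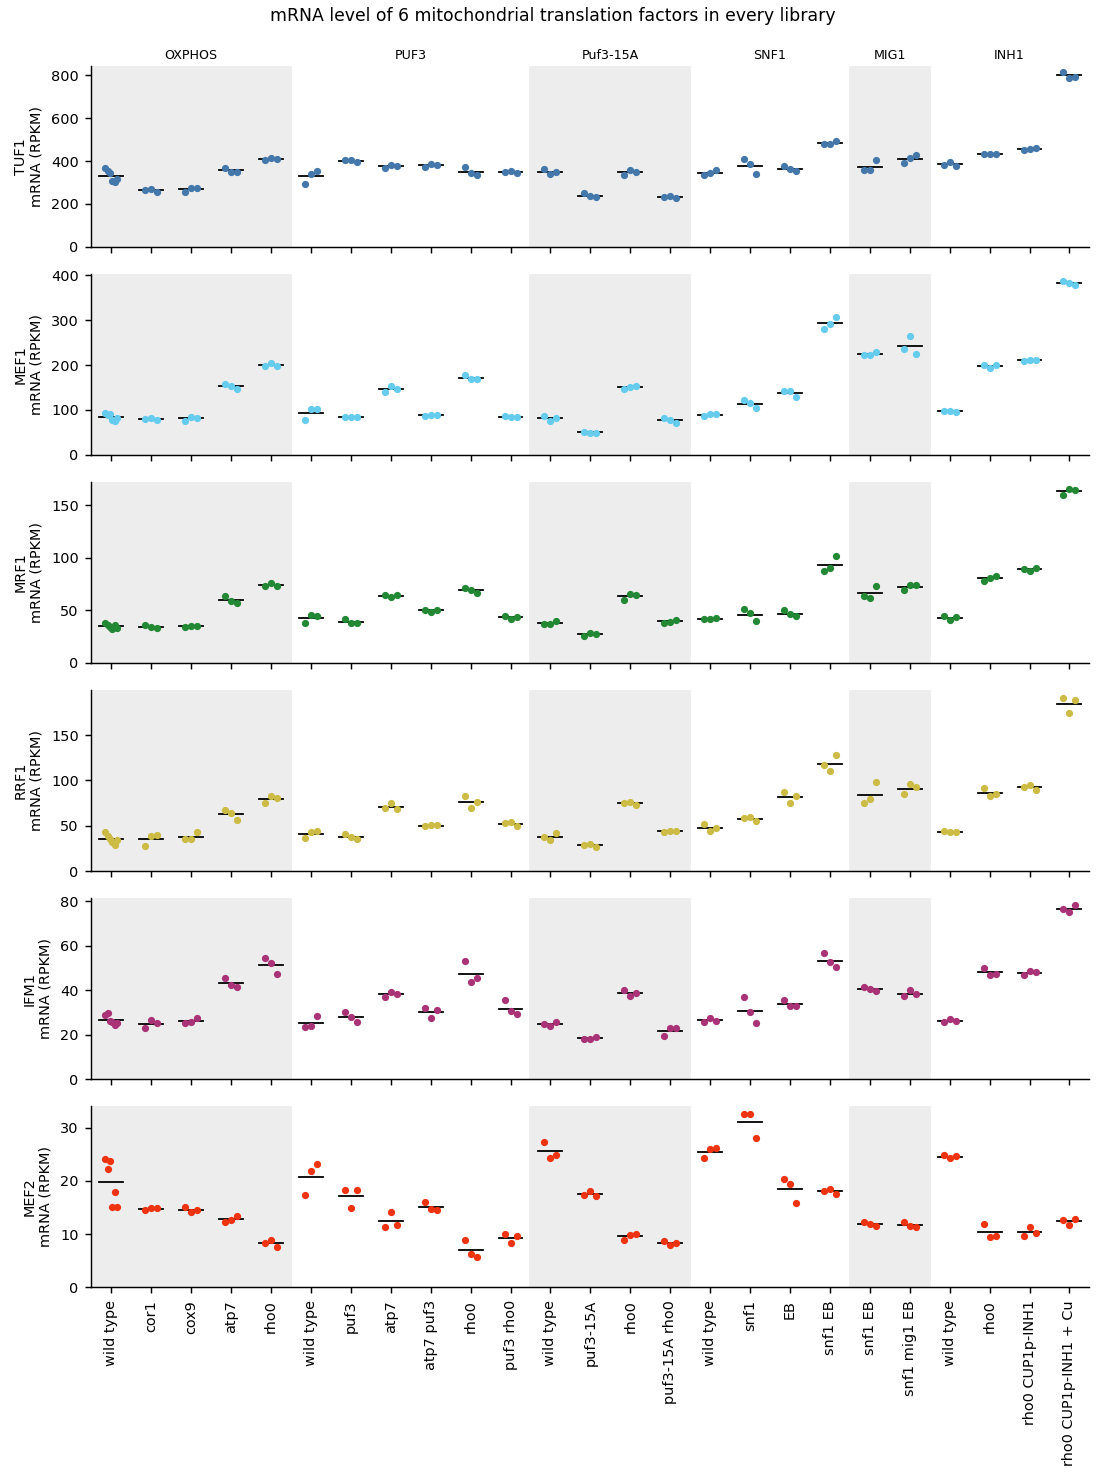
The vertical axes show RPKM of each factor and the horizontal axis the 25 mRNA groups by set, with 1 point per library and a line at the group mean. In the rho0 groups with PUF3 intact MEF2 lies below the wild type of its set, while MEF1, MRF1, RRF1 and IFM1 lie above theirs, and all factors but MEF2 stand highest in the copper-treated group of the INH1 set.

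The factors differed widely in level before any mutation. In the 3 wild-type libraries of the INH1 set, TUF1 was at 382, 396 and 378 RPKM, and MEF1, which works in the same elongation cycle, was at 98.0, 97.9 and 95.7 RPKM. MRF1 and RRF1, for termination and recycling, lay side by side at 40.7 to 44.3 and 43.1 to 44.1 RPKM. IFM1 and MEF2 were the lowest, at 25.5 to 27.2 and 24.3 to 24.8 RPKM. Across the 25 mRNA groups the mean level of MEF1 ranged most, 7.66-fold, from the mean of puf3-15A (48.8 to 51.8 RPKM) to that of copper-treated rho0 (379.7 to 387 RPKM). RRF1 ranged 6.46-fold, MRF1 6.02-fold, MEF2 4.49-fold, IFM1 4.17-fold and TUF1 3.42-fold.

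Ordered by level, MEF2 was lowest in rho0 of the PUF3 set, at 6.93 ± 1.72 RPKM (SD, n = 3). Next came puf3-15A rho0 (8.25 ± 0.361), rho0 of the OXPHOS set (8.27 ± 0.665), puf3 rho0 (9.28 ± 0.920), and rho0 of the Puf3-15A set (9.62 ± 0.563), followed by rho0 of the INH1 set (10.3 ± 1.43) and the same with CUP1p-INH1 (10.4 ± 0.892). All 7 rho0 groups without copper filled these lowest places, and the ranges of neighbours in them overlapped. The 2 MIG1 set groups (11.7 ± 0.455 and 11.9 ± 0.354 RPKM), copper-treated rho0 (12.4 ± 0.639) and the atp7 groups of the PUF3 and OXPHOS sets (means of 12.4 and 12.8) came above them. The highest groups were the wild types of the INH1, SNF1 and Puf3-15A sets, at 24.6 ± 0.280, 25.5 ± 1.00 and 25.5 ± 1.61 RPKM, and snf1 of the SNF1 set at 31.1 ± 2.59 RPKM, which lay above them all. In this order 20 of the 24 pairs of neighbouring groups overlapped in range. In the orders of TUF1, MEF1, IFM1, MRF1 and RRF1 it was 18, 15, 19, 18 and 20 of 24. These are deposited RPKM, and levels of different sets were not tested against each other, so this order across sets is a description.

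Loss of mitochondrial DNA moved MEF2 against the other factors in the OXPHOS set. MEF2 was at 24.2, 22.3, 23.7, 15.1, 17.9 and 15.2 RPKM in wild type and at 8.37, 8.88 and 7.56 RPKM in rho0, 190 to 259 reads per rho0 library. All rho0 values lay below all wild-type values. On the scale used for all tests, log2(RPKM + 1) after rescaling of libraries, MEF2 fell by 1.22 (SE 0.12, adjusted p = 2.1e-07, limma), a level 0.429 times that of wild type. Its fall was 1.45 against wild-type libraries 1 to 3 alone and 0.99 against libraries 4 to 6 alone. In bulk RNA such as this, fewer cells with the mRNA and less of it per cell cannot be told apart.

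The other elongation factor G gene went the opposite way. MEF1 was at 94.2, 89.2, 91.4, 76.9, 74.7 and 81.5 RPKM in wild type and at 199, 205 and 198 RPKM in rho0, again without overlap, a rise of 1.15 (SE 0.05, adjusted p = 5.7e-11, limma). RRF1, MRF1 and IFM1 rose by 1.06, 0.97 and 0.83. TUF1, already the most abundant, rose by 0.22 (SE 0.04, adjusted p = 0.00058, limma), from 302 to 369 RPKM in wild type to 403 to 416 RPKM in rho0. All 6 factors were thus called, 5 higher and 1 lower, where 49.7% of all genes tested were called (adjusted p under 0.05, either direction, here and below). MEF2 stood at percentile 0.5 of the changes of all genes and MEF1 at percentile 97.9.

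In the atp7 deletion, which keeps mitochondrial DNA, the same 5 genes other than TUF1 were called, where 45.3% of all genes were. MEF2 was at 12.3, 12.6 and 13.4 RPKM, below every wild-type library, and fell by 0.66 (SE 0.12, adjusted p = 0.00030, limma). Its change was -0.89 against wild-type libraries 1 to 3 alone and -0.43 against libraries 4 to 6 alone, called in both. MEF1 reached 158, 154 and 148 RPKM, a rise of 0.75 (SE 0.05). MRF1, RRF1 and IFM1 rose by 0.65, 0.70 and 0.57, and TUF1 was at 351 to 368 RPKM, a change of 0.00 with a 95% interval from -0.09 to 0.09. Against libraries 1 to 3 alone and 4 to 6 alone TUF1 was at -0.06 and 0.07, not called. In the same comparison 17 of 20 stress genes were higher (median 1.00), 24 of 24 ribosome biogenesis genes lower (median -0.55) and 7 of 7 mating type a genes higher (median 0.47), and their part was not tested. The OXPHOS rho0 comparison had smaller shifts, with 11 of 20 stress genes and 2 of 7 mating type a genes higher (medians 0.69 and 0.11) and 5 of 24 ribosome biogenesis genes lower (median -0.19).

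Loss of COR1 or COX9 left most factors close to wild type. TUF1 fell in both, by 0.33 (SE 0.04, adjusted p = 0.00016, limma) and 0.30 (SE 0.04, adjusted p = 0.00032, limma), from 302 to 369 RPKM in wild type to 256 to 270.4 RPKM in cor1 and 257 to 276 RPKM in cox9. It was the 1 factor called in each, where 6.38% and 6.63% of all genes were called. MEF1, MRF1, RRF1 and IFM1 changed by -0.10 to 0.10 in the 2 deletions, none of them called. MEF2 was at 14.5, 14.9 and 14.8 RPKM in cor1 and at 15.1, 14.1 and 14.5 RPKM in cox9, where the lower trio of wild-type libraries begins at 15.1 RPKM. Its changes of -0.38 (adjusted p = 0.069, limma) and -0.39 (adjusted p = 0.055, limma) were not called. Without wild-type library 4 or 6 they were called, at -0.44 in cor1 and -0.45 in cox9, which made 2 factors in each. Against wild-type libraries 1 to 3 alone they were -0.60 (adjusted p = 4.2e-05, limma) and -0.62 (adjusted p = 2.5e-05, limma), and MEF1 was called as well, at -0.18 and -0.14, which made 3 in each. Against libraries 4 to 6 alone MEF2 was at -0.15 and -0.16, not called.

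**Figure D2:**
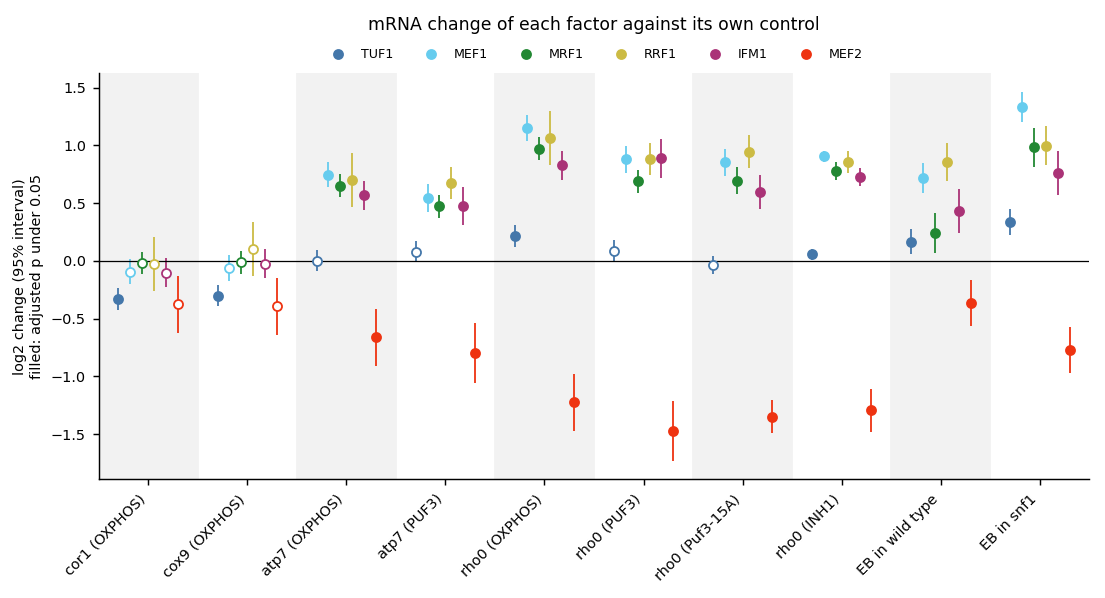
Points are log2 changes of each factor against the control of its set, bars are 95% intervals from limma, and filled points have an adjusted p under 0.05. In the rho0, atp7 and ethidium bromide comparisons plotted, none of which has PUF3 changed, MEF2 lies below 0 while MEF1, MRF1, RRF1 and IFM1 lie above it, and TUF1 lies within 0.34 of 0.

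The other sets gave separate libraries of the same mutants. In the Puf3-15A set, whose 4 groups all have mating type a genes at 1858 to 3046 RPKM in sum, MEF2 went from 27.3, 24.3 and 24.8 RPKM in wild type to 8.97, 9.90 and 9.98 RPKM in rho0. The groups did not overlap, and MEF2 fell by 1.35 (SE 0.07, adjusted p = 9.9e-09, limma). MEF1, MRF1, RRF1 and IFM1 rose by 0.85, 0.69, 0.95 and 0.59, and TUF1 changed by -0.04 (95% interval -0.12 to 0.04). This made 5 of 6 called, where 55.7% of all genes were. Stress genes were higher here (17 of 20, median 0.90) and ribosome biogenesis genes lower (19 of 24, median -0.35), with a part that was not tested.

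In the PUF3 set MEF2 was at 17.4, 21.8 and 23.2 RPKM in wild type, 8.88, 6.28 and 5.63 RPKM in rho0 and 11.3, 14.1 and 11.8 RPKM in atp7. Both mutants lay wholly below wild type, with falls of 1.47 (SE 0.12, adjusted p = 1.8e-07, limma) and 0.80 (SE 0.12, adjusted p = 6.4e-05, limma). MEF1, MRF1, RRF1 and IFM1 rose by 0.69 to 0.89 in rho0 and by 0.47 to 0.67 in atp7, and TUF1 was not called in either. Each comparison thus called 5 of 6 factors, where 39.8% of all genes were called for rho0 and 54.6% for atp7. The 7 mating type a genes were also called higher in both mutants, with a median of 1.64 and 1.51, and their part in these results was not tested. In the Puf3-15A set those genes are high in both groups, with 2 of 7 called higher and 4 lower in rho0 (median -0.32). The fall of MEF2 was 1.35 there, and the sets were not tested against each other. Within the PUF3 set, stress genes were higher in atp7 (19 of 20, median 1.94) and in rho0 (12 of 20, median 0.90). Of the 24 ribosome biogenesis genes 24 and 2 were lower, and the part of these shifts was not tested either.

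In the INH1 set MEF2 went from 24.8, 24.3 and 24.6 RPKM in wild type to 12.0, 9.38 and 9.59 RPKM in rho0, a fall of 1.29 (SE 0.09, adjusted p = 3.1e-08, limma). MEF1 went from 95.7 to 98.0 RPKM to 195 to 200.4 RPKM, a rise of 0.91 (SE 0.02). RRF1, MRF1 and IFM1 rose by 0.86, 0.78 and 0.73. All 6 factors were called, where 70.4% of all genes were. The call of TUF1, at 0.06 (SE 0.02, adjusted p = 0.041, limma), was lost without wild-type library 1 or 3 or any 1 of the 3 rho0 libraries, and with only the 2 groups fitted. All 7 mating type a genes were higher in this rho0 group (median 5.60), 20 of 20 stress genes were higher (median 1.36) and 24 of 24 ribosome biogenesis genes lower (median -0.78). What part these differences have was not tested.

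The genes next to MEF2 also fell in rho0, by less. GSM1, a zinc cluster protein gene, was at -0.45, -0.50, -0.61 and -0.44 in the OXPHOS, PUF3, Puf3-15A and INH1 sets, and GSH1, the first enzyme of glutathione synthesis, at -0.44, -0.57, -0.30 and -0.52, all 8 called. With ethidium bromide in wild type they rose by 0.75 and 0.98, while MEF2 fell. The kit named for the mRNA libraries does not mark strand, so reads of the 2 strands cannot be told apart.

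Ethidium bromide in wild type gave a like pattern with a smaller fall of MEF2. MEF2 was at 24.4, 25.9 and 26.2 RPKM untreated and at 20.3, 19.3 and 15.8 RPKM treated, without overlap, a fall of 0.36 (SE 0.09, adjusted p = 0.0031, limma). RRF1 rose by 0.86, from 44.7 to 51.6 RPKM to 75.5 to 87.6 RPKM, MEF1 by 0.71 and IFM1 by 0.43. MRF1 rose by 0.24 and TUF1 by 0.17, calls that were lost without rescaling (0.15 and 0.07), that of MRF1 also without treated library 1 (0.20). All 6 factors were called, where 71.9% of all genes were. Of the 20 stress genes 19 were higher (median 3.25), and all 24 ribosome biogenesis genes were lower (median -1.94), changes whose part in the factors' values was not tested.

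Snf1 is the kinase that relieves glucose repression. In the snf1 deletion ethidium bromide moved all 6 factors. MEF2 went from 32.6, 32.6 and 28.1 RPKM untreated to 18.1, 18.5 and 17.5 RPKM treated, a fall of 0.77 (SE 0.09, adjusted p = 1.6e-05, limma). MEF1 went from 121, 116 and 104 RPKM to 281, 291 and 308 RPKM, a rise of 1.33 (SE 0.06, adjusted p = 1.4e-08, limma). RRF1, MRF1, IFM1 and TUF1 rose by 1.00, 0.98, 0.76 and 0.34. These 6 calls stand beside 58.5% of all genes. Both of these groups have few mating type a transcripts, so this comparison does not cross that line (2 of 7 a genes called higher, median 0.32). Stress genes were higher in it (14 of 20, median 1.18) and ribosome biogenesis genes lower (24 of 24, median -0.68), and their part was not tested.

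The difference between these ethidium bromide effects was tested as an interaction and called for 4 factors, where 46.7% of all genes were called. MRF1 rose by 0.74 more in snf1 than in wild type (SE 0.11, adjusted p = 0.00016, limma) and MEF1 by 0.62 more. MEF2 differed by -0.41 (SE 0.13, adjusted p = 0.020), a call lost without untreated snf1 library 2 or treated wild-type library 1 or 2, and without rescaling (-0.30, adjusted p = 0.097, limma). IFM1 differed by 0.33 (SE 0.12, adjusted p = 0.044), a call that was kept when treated wild-type library 1, treated snf1 library 3 or untreated snf1 library 1 was left out and lost without any other single library and with median-ratio factors (adjusted p = 0.051, limma). RRF1 and TUF1 differed by 0.14 and 0.17 without a call. The count was 2 without untreated snf1 library 2 or treated wild-type library 2. The snf1 groups differ from wild type in mating type a genes as well, of which 4 of 7 were called in this interaction (median 1.27). The 20 stress genes had 19 calls lower in it (median -2.19) and the 24 ribosome biogenesis genes 24 higher (median 1.31), and the part of none of these was tested.

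Without treatment the snf1 deletion left the factors near wild type. MEF1 alone was called, at 0.21 (SE 0.06, adjusted p = 0.020, limma), where 29.2% of all genes were. That call was lost without wild-type library 1 or 3 or snf1 library 1 or 2. MEF2, at 28.1 to 32.6 against 24.4 to 26.2 RPKM, did not overlap in deposited values but changed by 0.15 (95% interval -0.05 to 0.35) after rescaling. Under ethidium bromide all 6 factors were called between snf1 and wild type, where 61.4% of all genes were. MEF1 was higher by 0.83, MRF1 by 0.73, IFM1 by 0.40, RRF1 by 0.28 and TUF1 by 0.17. MEF2 was lower by 0.26 (SE 0.09, adjusted p = 0.026), with a treated range of 17.5 to 18.5 RPKM inside that of wild type, and this call was lost without rescaling (-0.02) and without treated wild-type library 1 or 2 or treated snf1 library 1 or 3. With only the 2 groups fitted it was lost too, as was that of TUF1. Mating type a genes fell in both of these comparisons, 7 of 7, with medians of -5.34 and -4.42. Under ethidium bromide stress genes were lower in snf1 (17 of 20, median -1.75) and ribosome biogenesis genes higher (24 of 24, median 1.20), and the part of these was not tested.

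Mig1 is the glucose repressor that Snf1 switches off. In the treated snf1 background its loss raised TUF1 by 0.20 (SE 0.06, adjusted p = 0.031, limma) and MRF1 by 0.20 (SE 0.06, adjusted p = 0.045, limma), 2 of 6 called where 30.8% of all genes were. Neither call held without rescaling, and the call of each was lost without any single library other than snf1 library 3. The count rose to 3 without that library, when RRF1 was called too. MEF2 was at 12.3, 11.9 and 11.6 RPKM in snf1 and at 12.2, 11.5 and 11.3 RPKM in snf1 mig1, a change of 0.04 (95% interval -0.14 to 0.22).

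Deletion of PUF3 in otherwise wild-type cells changed 1 factor of the 6. MEF1 was at 77.5, 102 and 103 RPKM in wild type and at 83.4, 85.1 and 85.3 RPKM in puf3, a change of -0.08 that was not called. TUF1 was the 1 factor called, where 16.2% of all genes were, with a rise of 0.35 (SE 0.04, adjusted p = 6.4e-05, limma) from 294, 341 and 355 RPKM to 407, 404 and 395 RPKM. IFM1 was at 0.20 (adjusted p = 0.081). Without wild-type library 1 MEF1 was called as well, at -0.16. MEF2 was at -0.20 (95% interval -0.46 to 0.06). The PUF3 set's wild type differs from its other groups in mating type a genes (median 1.77 higher in puf3, 7 of 7 called), and their part was not tested. In puf3, 8 of 20 stress genes were lower (median -0.71) and 17 of 24 ribosome biogenesis genes higher (median 0.44). Their part was not tested either.

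In rho0, loss of PUF3 lowered 4 factors. MEF1 went from 177, 169 and 169 RPKM in rho0 to 86.4, 83.7 and 85.3 RPKM in puf3 rho0, without overlap, a fall of 1.05 (SE 0.06, adjusted p = 4.6e-09, limma). MRF1 fell by 0.70, from 66.1 to 71.6 RPKM to 41.9 to 44.6 RPKM. IFM1 fell by 0.61 and RRF1 by 0.58, while TUF1 stayed at -0.05 (95% interval -0.14 to 0.04). MEF2 went the other way, from 8.88, 6.28 and 5.63 RPKM to 9.98, 8.24 and 9.62 RPKM, ranges that overlap. Its rise of 0.35 (SE 0.12, adjusted p = 0.041, limma) was lost without rho0 library 2 or 3 or puf3 rho0 library 1 or 3, without rescaling, with the replicate number as a block (0.35, adjusted p = 0.052, limma) and with only the 2 groups fitted (0.34, adjusted p = 0.15, limma). This made 5 of 6 called, where 30.5% of all genes were. Mating type a genes are high in both groups (2 of 7 called lower, median -0.29), while 11 of 20 stress genes were higher (median 0.78) and 20 of 24 ribosome biogenesis genes lower (median -0.53), and their part was not tested.

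The same deletion in atp7 lowered MEF1 from 140.4, 153 and 148 RPKM to 86.1, 89.0 and 88.5 RPKM, a fall of 0.70 (SE 0.06, adjusted p = 2.5e-06, limma). RRF1 fell by 0.45 and MRF1 by 0.32, IFM1 was at -0.30 (adjusted p = 0.065) and MEF2 at 0.30 (adjusted p = 0.50). These 3 calls of 6 stand against 2.22% of all genes called.

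Seen from the other side, 3 of the 4 factors that rose in rho0 did not pass the test there once PUF3 was absent. In puf3 cells, rho0 changed MEF1 by -0.10 (95% interval -0.22 to 0.03), IFM1 by 0.07 and MRF1 by 0.04, none called, while RRF1 rose by 0.36 and TUF1 fell by 0.31. MEF2 still fell, from 18.2, 15.0 and 18.4 RPKM to 9.98, 8.24 and 9.62 RPKM, by 0.92 (SE 0.12, adjusted p = 1.1e-05, limma). So 3 of 6 were called, where 60.6% of all genes were. For atp7 in puf3 cells 4 of 6 were called, where 63.6% of all genes were: RRF1 and MRF1 rose by 0.28 and 0.21, and TUF1 fell by 0.21. The fourth, MEF2 at -0.30 (adjusted p = 0.044), lost its call without puf3 library 1 or 3 or atp7 puf3 library 2 or 3, without rescaling, with median-ratio factors, with a pseudocount of 0.1 and with the replicate block. TUF1 lost its call without rescaling. In both of these comparisons 20 of 20 stress genes were higher (medians 2.38 for rho0 and 2.84 for atp7) and 24 of 24 ribosome biogenesis genes lower (medians -1.18 and -1.29), and their part was not tested.

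The interaction of PUF3 with rho0 was called for all 6 factors, where 37.1% of all genes were. It was -0.97 for MEF1 (SE 0.08, adjusted p = 5.9e-07, limma), -0.81 for IFM1, -0.65 for MRF1, -0.53 for RRF1 and -0.40 for TUF1. For MEF2 it was 0.55 (SE 0.17, adjusted p = 0.020), of opposite sign, and that call was lost without wild-type library 3, puf3 library 2 or rho0 library 3. The interaction with atp7 was called for 5, where 7.6% of all genes were: MEF1 at -0.62, IFM1 at -0.50, RRF1 at -0.39, TUF1 at -0.29 and MRF1 at -0.27. The call of MRF1 was lost without atp7 library 1 or 3 or atp7 puf3 library 2 or 3, and without rescaling 2 of the 5 calls remained. MEF2 stood at 0.50 (adjusted p = 0.086). Both interactions use the PUF3 set's wild type, and mating type a genes had medians of -2.10 and -1.86 in them, all 7 called. In the interaction with rho0, 16 of 20 stress genes were called higher (median 1.4996) and 24 of 24 ribosome biogenesis genes lower (median -0.95). In that with atp7, 1 of 20 stress genes was called higher (median 0.91) and 0 of 24 ribosome biogenesis genes lower (median -0.498). The part of these shifts was not tested.

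PUF3 mRNA itself was in rho0 at 66.7 ± 6.99 RPKM against 42.9 ± 1.13 RPKM in the PUF3 set's wild type (SD, n = 3) and at 86.5 ± 2.38 (n = 3) against 45.5 ± 3.12 RPKM (n = 6) in the OXPHOS set.

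**Figure D3:**
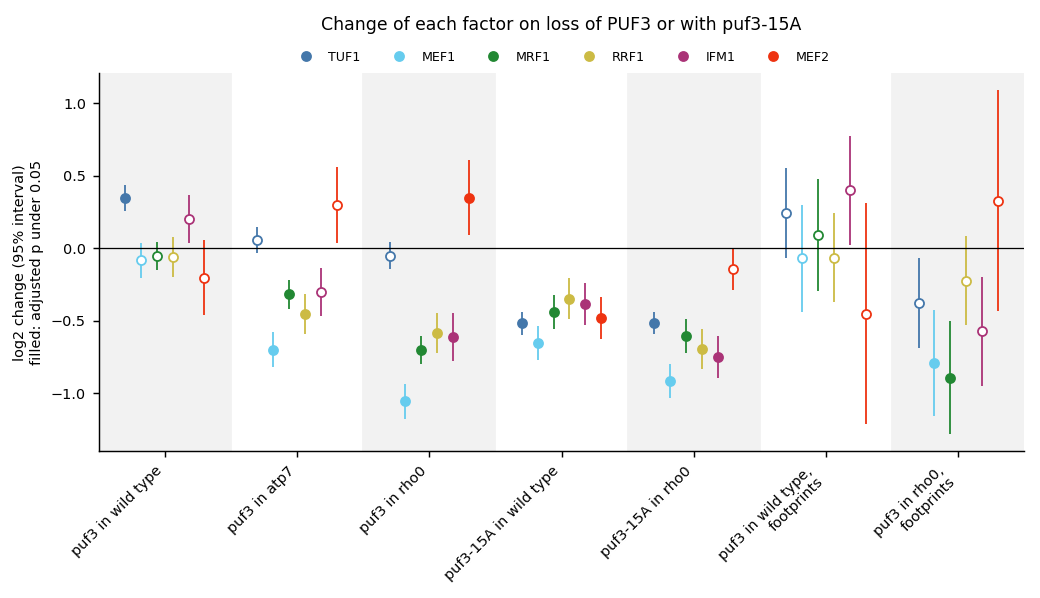
Points are log2 changes on loss of PUF3, or with puf3-15A in place of PUF3, in the backgrounds named on the horizontal axis, with 95% intervals, and filled points have an adjusted p under 0.05. MEF1, MRF1, RRF1 and IFM1 lie below 0 in rho0 with either change of PUF3, whereas in wild-type mRNA they lie below 0 with puf3-15A and between -0.08 and 0.20 with the deletion.

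The puf3-15A allele differed from the deletion in that it lowered all 6 factors in wild-type cells, where 13.5% of all genes were called. MEF1 went from 86.3, 75.9 and 81.4 RPKM to 51.8, 49.4 and 48.8 RPKM, a fall of 0.65 (SE 0.05, adjusted p = 1.3e-05, limma). TUF1 fell by 0.52, from 338 to 364 RPKM to 230.1 to 249.7 RPKM, MRF1 by 0.44, IFM1 by 0.38 and RRF1 by 0.35. MEF2 fell with them, from 27.3, 24.3 and 24.8 RPKM to 17.4, 18.0 and 17.2 RPKM, by 0.48 (SE 0.07, adjusted p = 0.00046, limma). With the allele 13 of 20 stress genes were lower (median -0.35) and 19 of 24 ribosome biogenesis genes higher (median 0.22). Their part was not tested. The deletion and the allele were measured in different sets, and the difference between them was not tested.

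In rho0 the allele lowered 5 of 6, where 19% of all genes were called. MEF1 fell by 0.91 (SE 0.05, adjusted p = 2.0e-07, limma), from 147, 151 and 155 RPKM to 81.9, 77.2 and 70.8 RPKM, IFM1 by 0.75, RRF1 by 0.69, MRF1 by 0.61 and TUF1 by 0.51. MEF2, at 8.97, 9.90 and 9.98 RPKM in rho0 and 8.61, 7.89 and 8.24 RPKM with the allele, changed by -0.14 (adjusted p = 0.16). Within puf3-15A cells rho0 still raised MEF1, RRF1, MRF1 and IFM1, by 0.60, 0.60, 0.53 and 0.23, and lowered MEF2 by 1.01 (SE 0.07, adjusted p = 6.0e-08, limma), 5 of 6 called where 65.6% of all genes were. TUF1 changed by -0.03 there. In that comparison 20 of 20 stress genes were higher (median 1.44) and 24 of 24 ribosome biogenesis genes lower (median -0.61). With the allele in rho0, 3 stress genes were higher (median 0.20) and 2 ribosome biogenesis genes lower (median -0.04). The part of these shifts was not tested.

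The interaction of the allele with rho0 was called for 4 factors, where 17.6% of all genes were. IFM1 differed by -0.37, RRF1 by -0.35 and MEF1 by -0.26, and MEF2 by 0.34 (SE 0.09, adjusted p = 0.029, limma). With 1 library left out in turn the count ran from 1 to 3. IFM1 lost its call without rho0 library 1, RRF1 without puf3-15A library 2 or rho0 library 2, and MEF1 without any single library other than wild-type library 1 and puf3-15A rho0 library 1. MEF2 lost its call without wild-type library 1, puf3-15A library 1 or 3, rho0 library 1 or puf3-15A rho0 library 1 or 3, and with the replicate block. Of the 7 mating type a genes 5 were called lower in this interaction (median -0.22). In it 13 of 20 stress genes were called higher (median 0.53) and 16 of 24 ribosome biogenesis genes lower (median -0.26). The part of these was not tested.

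Inh1 binds the ATP synthase and blocks ATP hydrolysis by it. With CUP1p-INH1 and no copper, INH1 mRNA stood at 295 ± 7.75 RPKM in rho0 beside 77.6 ± 2.17 RPKM without the construct (SD, n = 3). Among the factors, MRF1 at 0.14 (adjusted p = 0.021, limma) and MEF1 at 0.07 (adjusted p = 0.029, limma) were called, where 17.9% of all genes were. Both calls were lost without rho0 library 1 or 2 or construct library 3, that of MEF1 also without construct library 2 and that of MRF1 without construct library 1. MEF2 was at 0.00 (95% interval -0.19 to 0.19).

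Copper with that construct, at an INH1 mRNA of 1931 ± 22.2 RPKM, raised the 5 factors other than MEF2 further. TUF1, which had moved little in rho0, went from 452, 457 and 462 RPKM to 816, 790 and 795 RPKM, a rise of 0.73 (SE 0.02, adjusted p = 2.3e-11, limma). MEF1 went from 209, 211 and 211 RPKM to 387, 383 and 379.7 RPKM, a rise of 0.79 (SE 0.02). RRF1, MRF1 and IFM1 rose by 0.91, 0.79 and 0.60. MEF2, at 9.60, 11.3 and 10.1 RPKM before and 12.6, 11.7 and 12.9 RPKM after, did not overlap but was not called (0.17, adjusted p = 0.097). It was called without construct library 2 (0.23) and without rescaling (0.24). Thus 5 of 6 were called, where 71.6% of all genes were. No group had copper without the construct, so copper and INH1 cannot be told apart, and 18 of 20 stress genes were higher as well (median 1.04). Ribosome biogenesis genes were lower (23 of 24, median -0.76), and so were mating type a genes (6 of 7, median -1.01). The part of these shifts was not tested.

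Ribosome footprints showed the same directions in rho0. MEF2 footprints were at 7.02 and 11.7 RPKM in wild type, 47 and 86 reads, and at 2.12 and 2.44 RPKM in rho0, 6 and 11 reads. They fell by 1.74 (SE 0.32, adjusted p = 0.0085, limma). MRF1 rose by 1.11, from 13.6 and 16.5 RPKM to 38.5 and 34.7 RPKM, IFM1 by 0.86, MEF1 by 0.80 and RRF1 by 0.55, while TUF1 was at -0.07 (95% interval -0.38 to 0.24). This gave 5 of 6 called, where 24.7% of all genes were. The calls of MEF1 and RRF1 were lost without rho0 library 2, that of MEF1 also without wild-type library 1 and that of RRF1 without wild-type library 2, so 3 calls were left without rho0 library 2. RRF1 also lost its call with only the 2 groups fitted. Stress genes were higher in rho0 footprints (14 of 20, median 1.05) and ribosome biogenesis genes lower (16 of 24, median -0.48). Footprint wild type has few mating type a transcripts, and those 7 genes were all higher in rho0 (median 4.65). The part of none of these shifts was tested.

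Between puf3 and puf3 rho0, mating type a genes are high in both groups (1 of 7 called lower, median -0.32). MEF2 footprints were at 7.47 and 5.62 RPKM against 2.81 and 4.33 RPKM. They were lower in both rho0 libraries, at -0.96 (95% interval -1.72 to -0.20, adjusted p = 0.064, limma). In that comparison TUF1 was the 1 factor called, at -0.68, where 27.7% of all genes were, and this call was lost without either puf3 library or puf3 rho0 library 2, and without rescaling. MEF1 and MRF1 were at 0.08 and 0.12. Stress genes were higher there (16 of 20, median 1.55) and ribosome biogenesis genes lower (21 of 24, median -0.66), and their part was not tested.

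Loss of PUF3 in rho0 lowered footprints of MRF1 by 0.89 (SE 0.17, adjusted p = 0.033, limma) and of MEF1 by 0.79 (SE 0.16, adjusted p = 0.037), 2 of 6 called where 4.71% of all genes were. MEF1 went from 93.2 and 115 RPKM to 68.6 and 65.2 RPKM. Both calls were lost when any 1 of the 4 libraries was left out and when only the 2 groups were fitted. IFM1 was at -0.57, TUF1 at -0.38, RRF1 at -0.22 and MEF2 at 0.33. Against wild type the puf3 deletion gave 0 of 6 called by limma, where 1.34% of all genes were, and 1 of 6 (IFM1, 0.40) at an unadjusted p under 0.05. That comparison crosses the mating type line too, with 6 of 7 a genes called higher (median 5.02).

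**Figure D4:**
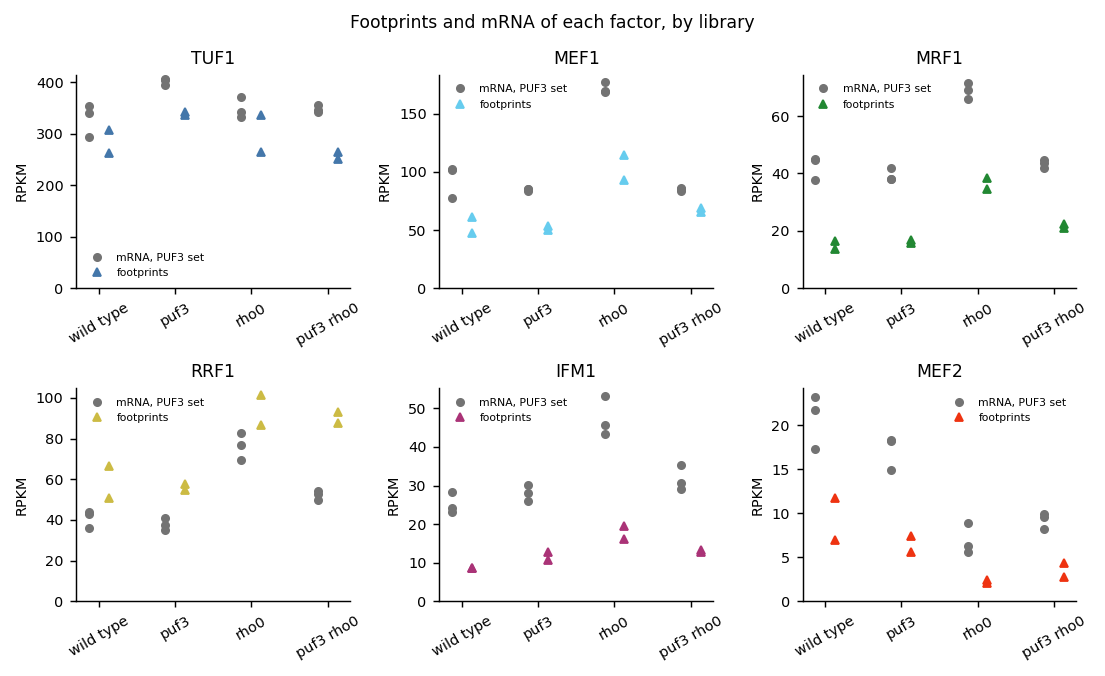
Vertical axes show RPKM of each factor, with grey circles for mRNA libraries of the PUF3 set and coloured triangles for footprint libraries, by genotype on the horizontal axis. MEF2 has its lowest mean in rho0 in both assays, and RRF1 alone has footprint RPKM above its mRNA RPKM in every genotype.

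Footprint RPKM over mRNA RPKM, a measure of ribosome density relative to other genes, differed between the factors. In wild type it was 1.43 for RRF1, 0.863 for TUF1, 0.577 for MEF1, 0.451 for MEF2, 0.354 for MRF1 and 0.339 for IFM1, beside a median of 0.618 over 6036 genes. Changes of the ratio were tested as footprint change minus mRNA change in log2(RPKM + 1). No factor's ratio was called changed in rho0 (7.71% of all genes called), on loss of PUF3 (0.592%) or on loss of PUF3 in rho0 (8.09%). At an unadjusted p under 0.05 limma gave 2 factors for rho0 (MRF1 at 0.42 and RRF1 at -0.33), 0 for puf3 and 2 for puf3 in rho0 (RRF1 at 0.37 and TUF1 at -0.32). Both tests against wild type set a footprint wild type with few mating type a transcripts beside an mRNA wild type at 566 to 830.5 RPKM in sum. In them 6 of 7 a genes and 4 of 4 haploid genes were called (a gene medians of 2.90 for rho0 and 3.32 for puf3), and the same libraries lie behind the wild-type ratios above. Their part was not tested. MRF1 was called for rho0 without footprint wild-type library 2 (0.58) or rho0 library 2 (0.52), and TUF1 for puf3 in rho0 without footprint rho0 library 1 (-0.46). For MEF2 in rho0 the tested change was -0.27, with a 95% interval from -0.91 to 0.37. It rests on 6 and 11 footprint reads in rho0, so a moderate change could not be detected at this depth. The plain ratio of MEF2 was 0.329 in rho0 beside 0.451 in wild type, and the added 1 RPKM understates changes at such low levels.

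The contrast of MEF2 with the other factors was also taken within each library, as MEF2 minus the mean of the other 5 in log2(RPKM + 1), in which the scaling of a library largely cancels. In mRNA wild types this averaged from -1.66 in the PUF3 set to -1.28 in the Puf3-15A set. It was -2.84 and -2.90 in the 2 atp7 groups and -3.24 to -3.81 in the rho0 groups with PUF3 and no copper. No rho0 library of these 4 sets and no atp7 library reached into the range of its own wild type. The cor1 and cox9 groups averaged -1.90 (-1.94 to -1.85) and -1.97 (-2.05 to -1.85), and both reached into the range of the OXPHOS wild type (-1.91 to -1.38). All their libraries lay below wild-type libraries 1 to 3 (-1.55 to -1.38), while libraries 4 to 6 were at -1.91 to -1.62. Ethidium bromide gave -2.27 in wild type and -3.01 in snf1, and the MIG1 set -3.15 and -3.26. Copper gave the lowest mRNA value, -4.13 ± 0.05 (SD, n = 3), through the rise of the other 5.

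With PUF3 deleted the difference was narrower in rho0, -2.86 ± 0.13 against -3.81 ± 0.23 with PUF3 (SD, n = 3), and in atp7, -2.26 ± 0.08 against -2.90 ± 0.13. In puf3-15A rho0 it was -2.69 ± 0.08 against -3.24 ± 0.06. In wild-type cells the allele gave -1.30 beside -1.28, since MEF2 fell together with the others. Footprints gave -2.08 in wild type, -4.47 in rho0, -2.65 in puf3 and -3.58 in puf3 rho0 (n = 2 each).

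**Figure D5:**
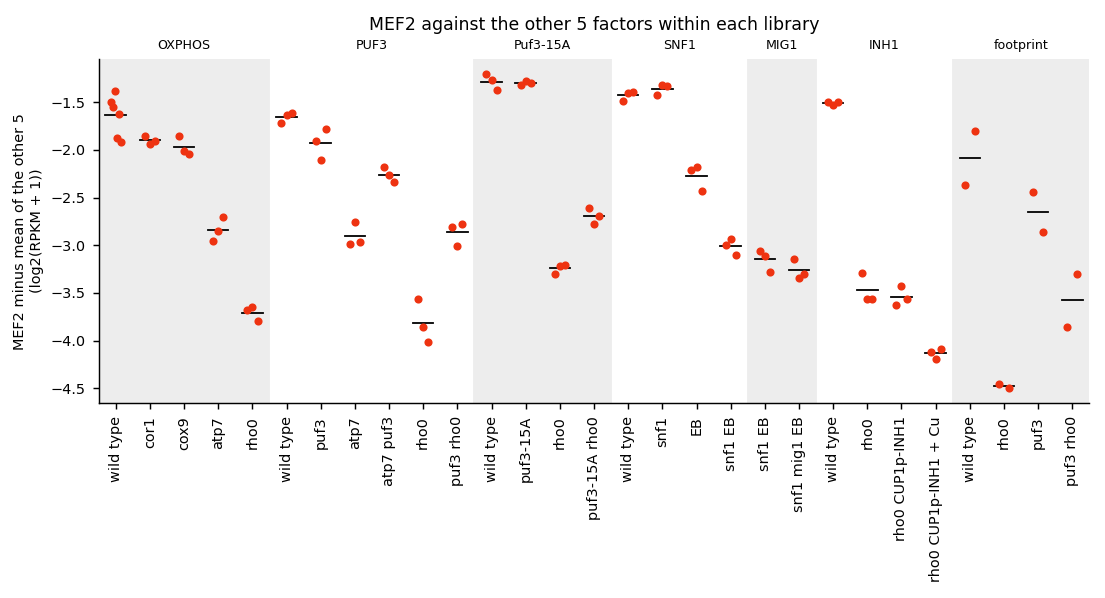
The vertical axis is MEF2 minus the mean of the other 5 factors in log2(RPKM + 1), with 1 point per library, a line at the group mean and groups ordered by set. The rho0 groups lie lowest in each set that has them, and those with puf3 or puf3-15A lie between rho0 and wild type.

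Each of the 25 mRNA groups was taken as its mean rescaled log2(RPKM + 1) minus the mean of its set's groups. Differences between sets thus drop out. Across these values MEF1, IFM1, MRF1 and RRF1 tracked each other with Pearson's r of 0.96 to 0.98. TUF1 reached 0.66 to 0.71 with them. MEF2 stood at -0.68 to -0.76 with these 4 and at -0.13 with TUF1. These are descriptions over groups that share sets and libraries. Of 5432 genes compared, the 3 most like MEF2 were DMO1 (r = 0.954), QCR6, a complex III subunit (0.940), and COX4, a complex IV subunit (0.938). Those most like MEF1 were the mitochondrial ribosomal genes MRPS17, RSM28 and RSM7 (0.989 each). For RRF1 they were GUF1, a mitochondrial elongation factor 4 (0.991), MSF1, the mitochondrial phenylalanyl-tRNA synthetase (0.990), and QRI5 (0.989). For MRF1 they were AIM36, DPC29 and MHR1 (0.986 to 0.988), and for IFM1 the assembly factor CBP3 (0.985), RSM7 (0.981) and COX23 (0.979). TUF1 had looser company in the mitochondrial Hsp70 SSC1 (0.857), MGR2 (0.852) and the protease subunit YTA12 (0.845).

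The rest of the mitochondrial translation machinery gives the setting. In rho0 of the OXPHOS set 74 of 74 mitochondrial ribosomal protein genes rose, with a median of 0.88, where all genes had a median of -0.02 and 49.7% of them were called. Of 17 other mitochondrial translation genes 12 rose and none fell, with a median of 0.34. GUF1 rose by 1.10, HER2, a subunit of the tRNA amidotransferase, by 0.84 and the tRNA modification gene MTO1 by 0.78. The 3 of that list below 0 were FMT1, which formylates the initiator tRNA, at -0.25, PTH1 at -0.09 and MRM2, an rRNA methyltransferase, at -0.06, none of them called. Of 26 subunit genes of the respiratory chain and the ATP synthase, a list added after values were seen, 25 fell in the same comparison, with a median of -0.69.

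These lists moved with Puf3 as well. Of the 74 ribosomal genes 68 fell on loss of PUF3 in rho0 (median -0.56), where 30.5% of all genes were called. In atp7, where 2.22% were called, 51 fell and 1 rose (median -0.36). In wild type, where 16.2% were called, 37 rose and 3 fell (median 0.19). With puf3-15A 73 fell in wild type (median -0.45, beside 13.5% of all genes called) and 74 in rho0 (median -0.67, beside 19%). Of the subunit genes 26 of 26 fell with the allele in wild type (median -0.37), while in rho0 5 rose and none fell (median 0.06), and the interaction was called for 25 of 26 (median 0.43). With the deletion 1 of them fell in wild type, and 11 rose in rho0 (median 0.17). With copper, where 71.6% of all genes were called, 74 of 74 ribosomal genes rose (median 0.62), 15 of 17 other translation genes rose and 1 fell (median 0.35), and 21 of 26 subunit genes rose and 2 fell (median 0.32).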

How the data were processed

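The deposited values are RPKM per feature and library, made by the authors with CASAVA 1.9, STAR 2.6.1a, featureCounts and edgeR 3.28.1 on build R64, per the submitters' processing notes. Sources used here do not state gene lengths, the strand setting or how multiply mapped reads were treated. RefSeq locus tags matched 6048 of the 7126 identifiers.

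Trimmed means of log ratios (trimming 30% of ratios and 5% of levels) rescaled the libraries of a set, and a gene entered where RPKM was 1 or more in a number of libraries equal to the smallest group. All 6 factors entered every comparison. Then log2(RPKM + 1) was fitted with limma 3.58.1 (trend, R 4.3.3), with 1 mean per group and p-values adjusted over all genes (Benjamini-Hochberg, 0.05). This scale understates changes of low genes. The footprint to mRNA ratio was tested as an interaction of assay and genotype, with mRNA from the PUF3 set. Printed levels are the deposited RPKM. Read numbers, recovered outside the MIG1 set from the steps between low values (468 of 480 values of the factors whole within 0.05), serve for depth only. The procedure was tested on simulated data.

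Named are the 6 factors, the annotated gene on each side, the 3 genes most alike over mRNA groups (mean log2 of at least 3), PUF3, deleted genes, and up to 3 other translation genes against their list's direction. Members, lists and comparisons were chosen with earlier results of these data known, and the lists of subunit, haploid and alpha genes after values were seen. The 4 alpha genes summed to at most 61.8 RPKM in every library.

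Alternatives were a pseudocount of 0.1, no filter, no rescaling, median-ratio factors, compared groups only, a block for the replicate number, leaving out each library, and either trio of OXPHOS wild types. In the MIG1 set the residuals of all 3 same-numbered pairs correlated at 0.12 to 0.43. In the PUF3 set those of the 3 pairs of wild type and rho0 correlated at 0.20 to 0.36, and those of wild type and puf3 rho0 at -0.21 to -0.07. Correlations between libraries of different number were not computed, so whether the numbers pair libraries cannot be told from these values. Sequences were not analysed here. Figures were drawn with matplotlib 3.10.9, from tables made with pandas 2.3.3 and numpy 2.4.6 in Python 3.11.15.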

Additional observations from a re-analysis of the deposited data

Results flagged for a closer look

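Within the OXPHOS wild type, the 1 group of more than 3 libraries, no library stood apart in any of the 6 factors by Dixon's criterion. The results listed here were taken out because an effect differed between 2 backgrounds by an interaction term in limma.

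The effect of the puf3 deletion was lower in rho0 than in wild type by 0.97 for MEF1 (interaction -0.97), by 0.81 for IFM1 (-0.81), by 0.65 for MRF1 (-0.65), by 0.53 for RRF1 (-0.53) and by 0.40 for TUF1 (-0.40), and higher for MEF2 (0.55). In atp7 it was lower than in wild type for MEF1 (-0.62), IFM1 (-0.50), RRF1 (-0.39), TUF1 (-0.29) and MRF1 (-0.27). The effect of puf3-15A was lower in rho0 than in wild type for IFM1 (-0.37), RRF1 (-0.35) and MEF1 (-0.26) and higher for MEF2 (0.34). The effect of ethidium bromide was larger in snf1 than in wild type for MRF1 (0.74), MEF1 (0.62) and IFM1 (0.33), and MEF2 fell further there (-0.41).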

How the results depend on the processing

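Counts of factors called were recomputed under 455 combinations of comparison and setting. Of these 404 stayed within 1.5 times the reported count or at it and 51 moved. Of 2730 values of single factors 122 lost a call, 30 gained one and 0 changed direction with a call. MEF2 kept its fall and its call under every alternative run in rho0 of the OXPHOS, PUF3, Puf3-15A and INH1 sets, in both atp7 comparisons with wild type, under ethidium bromide in wild type and in snf1, and in rho0 footprints.

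With the replicate block, 3 factors were called in cor1 and 2 in cox9 in place of 1, and with wild-type libraries 1 to 3 alone 3 in each. Numbers 4 to 6 occur in no other group of the OXPHOS set, so the block compares with wild-type libraries 1 to 3. The block gave 1 in place of 2 for loss of PUF3 in rho0 footprints and moved no other count by more than 1.5 times. In no set but the MIG1 set did all same-numbered pairs correlate above 0.1, the most being 12 of 45 in the PUF3 set. Within that set all 3 pairs of wild type and rho0 did (0.20 to 0.36), and with the block the same count of 5 was called in rho0. Without rescaling the counts were 2 for atp7 in puf3 cells (reported 4), 2 for the interaction of PUF3 and atp7 (5), 3 for untreated snf1 (1), 0 for mig1 (2), 1 for loss of PUF3 in rho0 footprints (2) and 1 for the footprint to mRNA ratio in rho0 (0). With only the compared groups fitted, they were 0 for loss of PUF3 in rho0 footprints (2) and 2 for rho0 in puf3 footprints (1). Leaving out rescaling moved the median change of the 6 factors by 0.28 for rho0 in puf3 footprints and by 0.24 for snf1 under ethidium bromide. The causes were not tested.

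Leaving out 1 library at a time gave 1 to 2 factors for cor1, cox9 and puf3, 3 to 4 for atp7 in puf3 cells, 4 to 6 for the interaction of PUF3 and atp7, 1 to 3 for that of puf3-15A and rho0, 0 to 1 for untreated snf1, 2 to 4 for the interaction of snf1 and ethidium bromide, 0 to 3 for mig1, 0 to 2 for the INH1 construct, 3 to 5 for rho0 footprints, 0 for loss of PUF3 in rho0 footprints, 0 to 1 for rho0 in puf3 footprints, and 0 to 1 for the footprint to mRNA ratio in rho0 and on loss of PUF3 in rho0.

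Counts over all genes moved more. They were 431 for cor1 (135 to 2848 over the alternatives), 448 for cox9 (219 to 2874), 2704 for rho0 of the PUF3 set (lowest 1294), 1099 for puf3 (162 to 2404), 151 for puf3 in atp7 (highest 540), 2074 for puf3 in rho0 (lowest 1375), 517 for the interaction of PUF3 and atp7 (highest 1798), 911 for puf3-15A (lowest 498), 1195 for its interaction with rho0 (lowest 746), 2111 for mig1 (lowest 1286) and 1207 for the INH1 construct (lowest 769). In footprints they were 1567 for rho0 (lowest 860), 85 for puf3 (lowest 29), 299 for puf3 in rho0 (lowest 1) and 1758 for rho0 in puf3 (lowest 837), and for the ratio 482 (122 to 830), 37 (highest 195) and 506 (188 to 848) for rho0, puf3 and puf3 in rho0. The shallow footprint libraries, with 6 and 11 reads of MEF2 in rho0, limit what can be seen of it there.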
